A study of Mus musculus with 12 samples.

Results

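The plasminogen system and matrix proteases are described here through 9 genes in injured and opposite mouse cortex. They were taken by symbol after the Ensembl identifiers of the deposited tables were matched to GENCODE M21, and make up 9 of 55487 genes. They are Plaur, the urokinase receptor; Plau and Plat, which encode the urokinase-type and tissue-type plasminogen activators; Adamts1, Adamts4 and Adamts9, secreted metalloproteases; Mmp3, the matrix metalloprotease stromelysin-1; Timp1, an inhibitor of metalloproteases; and Thbs1, which encodes thrombospondin-1. All 9 are annotated as protein coding. The low-count filter kept 8 of the 9, and Mmp3 was left without a test.

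RNA was sequenced from cerebral cortex 2 hr after controlled cortical impact (CCI), in which a piston strikes the exposed brain surface. Cortex of the struck side (ipsilateral) and of the opposite side (contralateral) came from mice of 2 genotypes, with 3 libraries in each of the 4 groups. Mice of the group called wt were CX3CR1cre-er/+, so the controls also carried the Cre allele, and those of the group called cKO were CX3CR1cre-er/+ STING fl/fl. The series' design text writes the Cre of the floxed animals as CX3CR1cre/+, without the estrogen-receptor part, and tamoxifen, sex and age are not given in the sources used here. The Cx3cr1 gene drives this Cre in microglia and in monocytes and macrophages, and not in the neurons, astrocytes and vessel cells that make up most of the tissue. Neither uninjured nor sham-operated mice were among the groups, and the contralateral cortex came from mice that had been struck. The labels do not say whether the 3 libraries of a group are 3 animals, and the p values rest on the spread among these libraries alone.

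Plasminogen circulates in blood as an inactive precursor, and the 2 activators cut it to plasmin, a protease that dissolves fibrin and can activate matrix metalloproteases. Urokinase works largely while bound to its receptor on the cell surface, and tissue-type activator is made by neurons and vessel cells in brain, where it also acts at synapses. ADAMTS proteases cut the chondroitin sulfate proteoglycans of the brain matrix, among them brevican, and TIMP proteins block metalloproteases. Thrombospondin-1 is a matrix-associated glycoprotein that is stored in platelets and made by astrocytes and vessel cells, and many of these genes are known to respond within hours to injury.

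In mm10 coordinates, the receptor gene Plaur (ENSMUSG00000046223) lies on the plus strand at chr7:24462484-24475968. Plau (ENSMUSG00000021822) lies at chr14:20836660-20843385 and Plat (ENSMUSG00000031538) at chr8:22757727-22782844, both on the plus strand. Adamts1 (ENSMUSG00000022893) lies on the minus strand at chr16:85793827-85803113. Adamts4 (ENSMUSG00000006403) lies at chr1:171250421-171260637 on the plus strand. Adamts9 (ENSMUSG00000030022), at chr6:92772699-92943492 on the minus strand, shares exonic bases with the opposite-strand genes A730049H05Rik and Gm15737. Mmp3 (ENSMUSG00000043613) lies at chr9:7445822-7455975 on the plus strand. Timp1 (ENSMUSG00000001131), at chrX:20870166-20874735 on the plus strand, sits opposite Syn1 with no exonic bases in common. Thbs1 (ENSMUSG00000040152), at chr2:118111876-118127133 on the plus strand, shares exonic bases with the opposite-strand noncoding gene Gm29233. A stranded kit was used, but how strand was handled in counting is not given in the sources used here, so a contribution of opposite-strand reads to Adamts4, Adamts9, Thbs1 or the others was not tested.

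RefSeq start-site windows of build GRCm38.p6, which run from 250 bases before the start through the first 50 bases of the transcript, were at hand for 5 of the 9 genes. Those of Plaur, Mmp3, Adamts1 and Adamts9 are shown because the first and the third gene rose on the struck side in both genotypes, Mmp3 was barely detected, and Adamts9 had the lowest unadjusted p between genotypes in struck cortex. Capitals mark matches to the AP-1 motif TGANTCA (Plaur, Mmp3), to the cAMP response half-site TGACG (Adamts1, Adamts9), to the TATA motif TATAAA (Mmp3, Adamts1) and to the NF-kB decamer (Adamts9), searched on both strands. The windows are chr7:24462233-24462532 (plus strand) for Plaur, chr9:7445572-7445871 (plus strand) for Mmp3, chr16:85803064-85803363 (minus strand) for Adamts1 and chr6:92943485-92943784 (minus strand) for Adamts9, each written 5′ to 3′ on the gene's strand.
Plaur: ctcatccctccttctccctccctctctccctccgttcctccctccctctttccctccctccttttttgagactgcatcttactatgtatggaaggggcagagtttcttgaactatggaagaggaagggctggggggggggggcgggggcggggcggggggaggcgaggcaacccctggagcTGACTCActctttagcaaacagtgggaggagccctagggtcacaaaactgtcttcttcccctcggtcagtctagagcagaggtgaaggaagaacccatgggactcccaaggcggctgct
Mmp3: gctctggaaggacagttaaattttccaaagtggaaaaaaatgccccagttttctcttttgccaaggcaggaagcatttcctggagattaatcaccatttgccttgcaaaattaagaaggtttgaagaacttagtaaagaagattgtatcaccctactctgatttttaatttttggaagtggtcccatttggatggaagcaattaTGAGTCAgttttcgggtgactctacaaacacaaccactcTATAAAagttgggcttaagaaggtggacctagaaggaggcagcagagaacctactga
Adamts1: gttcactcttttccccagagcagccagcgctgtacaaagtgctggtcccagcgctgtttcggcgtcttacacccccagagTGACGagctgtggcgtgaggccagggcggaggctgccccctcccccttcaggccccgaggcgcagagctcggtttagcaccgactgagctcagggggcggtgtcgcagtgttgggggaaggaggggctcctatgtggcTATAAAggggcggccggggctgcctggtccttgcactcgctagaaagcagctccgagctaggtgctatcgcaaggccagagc
Adamts9: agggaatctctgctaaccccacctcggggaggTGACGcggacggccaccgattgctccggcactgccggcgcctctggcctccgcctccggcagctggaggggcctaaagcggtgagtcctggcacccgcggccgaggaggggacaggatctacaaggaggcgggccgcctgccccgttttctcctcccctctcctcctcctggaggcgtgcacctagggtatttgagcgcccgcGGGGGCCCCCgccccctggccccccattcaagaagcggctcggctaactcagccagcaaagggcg
The AP-1 motif stood at positions -69 to -63 from the start in Plaur and at -46 to -40 in Mmp3, and 7.81% of 32851 windows of this length hold it. TGACG, held by 20.8% of windows, was found in Adamts1, Adamts9 and Timp1. TATAAA is in 13.6% of windows and the NF-kB decamer in 8.46%. The full cAMP response element TGACGTCA, held by 1.79% of windows and containing TGACG, matched none of the 5. A match is a description of the letters, and binding was not measured. Plaur and Mmp3 both held the AP-1 letters, and their transcript levels in struck cortex were far apart. The part of the motif in these levels was not tested.

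Levels are given as CPM, the counts of a gene relative to the scaled size of its library, in the order of libraries 1, 2 and 3. Changes are log2 fold changes ± SE from edgeR's quasi-likelihood test, and adjusted p values are its p values with Benjamini-Hochberg adjustment over 16836 genes, called at 0.05. Libraries held 7958931 to 33567194 counts, with cKO ipsilateral library 3 the shallowest, and a count of 3 corresponded to 0.0894 to 0.377 CPM. STING (Tmem173) read 2.49, 2.63 and 3.18 CPM in wt contralateral and 0.998, 1.96 and 0.762 CPM in cKO contralateral cortex, and 2.34, 3.69 and 2.72 CPM against 1.05, 2.44 and 1.24 CPM on the struck side. It was lower in cKO by unadjusted edgeR p (0.00479 contralateral, 0.0320 ipsilateral) and not after adjustment (adjusted p = 1.0 and 0.816), and the groups overlapped on the struck side only. Cx3cr1, whose locus carries the Cre, averaged 22.2 ± 1.83 and 20.6 ± 1.30 CPM (SD, n = 3) in wt contralateral and ipsilateral cortex and 20.4 ± 1.85 and 17.4 ± 2.97 CPM in cKO. Cortex markers summed to 1829 to 2123 CPM and striatal markers to 146 to 225 CPM over the 12 libraries.

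On the struck side, 4 of the 8 tested genes rose in wt (Plaur, Plau, Adamts1 and Thbs1) and 7 of 8 in cKO, where Plat, Adamts4 and Adamts9 passed as well. None fell. Over all 16836 genes, 2.92% were called in wt (2.73% higher, 0.184% lower) and 2.74% in cKO (2.56% higher, 0.178% lower). The median change of the 8 genes was 1.38 in wt and 1.74 in cKO on the log2 scale, beside a median of -0.01 over all tested genes in each. CPM of the 2 sides did not overlap, with struck cortex higher, for 7 of 8 genes in wt and for 7 of 8 in cKO, where 10.5% and 10.8% of all genes did so. None was lower without overlap, beside 8.7% and 11.1% of all genes. The genes were chosen with earlier results of these data known, so their contrast with all genes is a description. Passing in cKO and not in wt does not show a genotype difference: the difference of the changes was called for none of the 8.

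**Figure D1:**
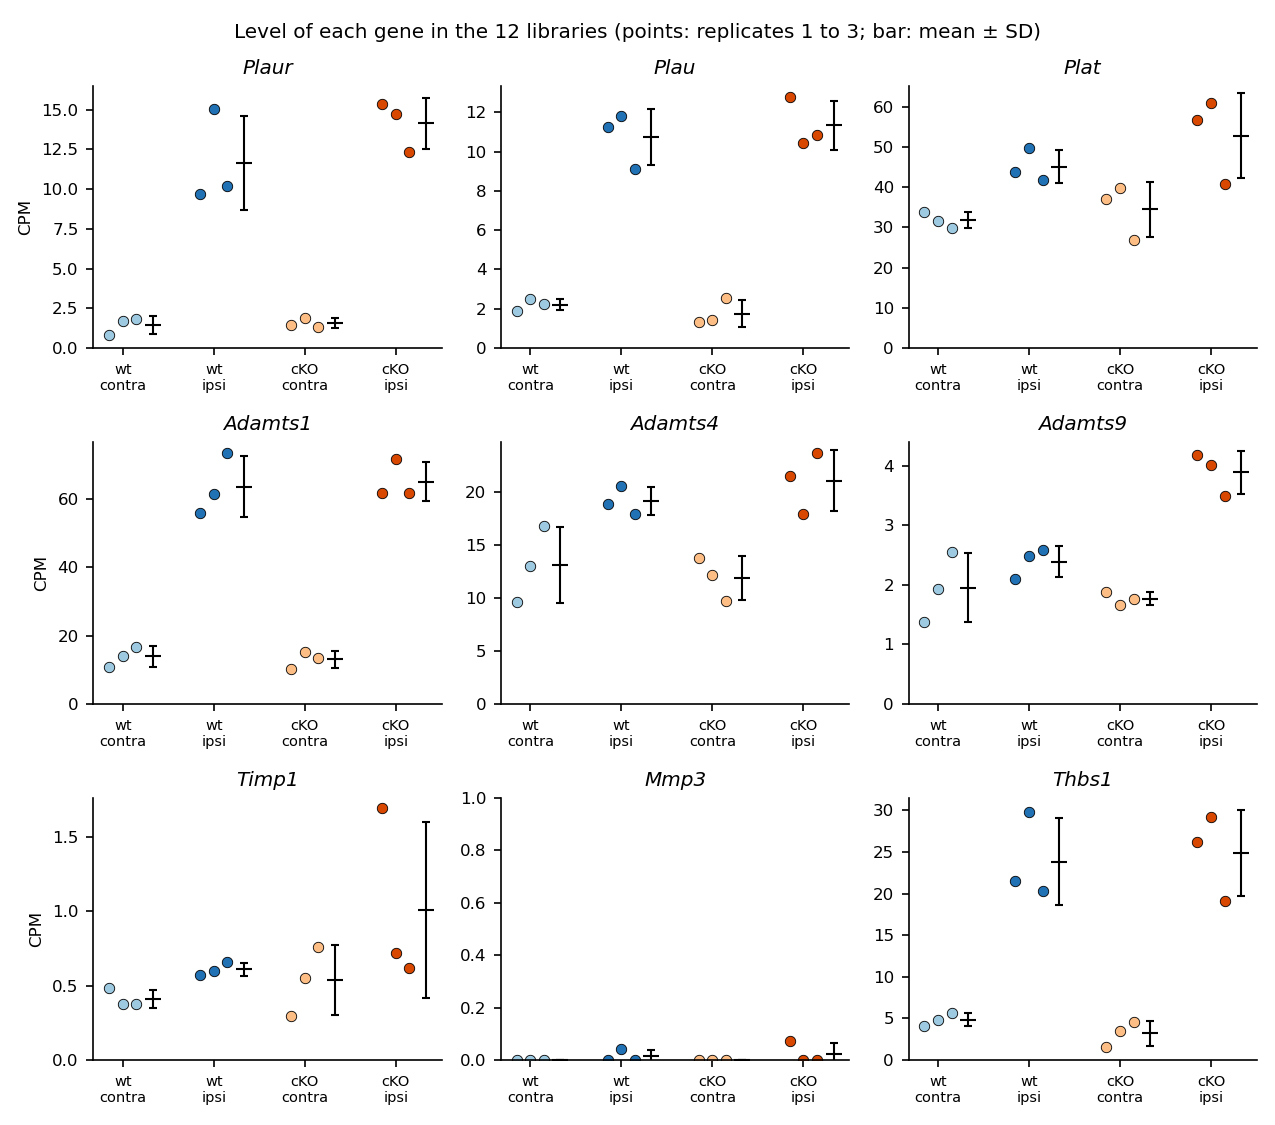
CPM of the 9 genes in each of the 12 libraries (linear axes from 0), by genotype and side; each point is a library and each bar the group mean ± SD. Plaur, Plau, Adamts1 and Thbs1 are higher in all 3 struck-side libraries of both genotypes than in any contralateral library of the same genotype, and Mmp3 is at or near 0 throughout.

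Plaur, whose product holds urokinase at the cell surface of leukocytes, endothelium and other cells, showed the largest fold of the 8. It was at 0.829, 1.73 and 1.83 CPM in wt contralateral and at 9.71, 15.1 and 10.2 CPM in wt ipsilateral cortex. The cKO libraries read 1.44, 1.92 and 1.33 CPM against 15.4, 14.7 and 12.3 CPM. In each genotype the lowest struck-side library was several times above the highest contralateral one. The rise was 7.96-fold in wt (log2 2.99 ± 0.25, adjusted p = 2.11e-06) and 9.14-fold in cKO (3.19 ± 0.25, adjusted p = 1.04e-06).

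Plau encodes urokinase itself. Its level was 1.90, 2.49 and 2.25 CPM in wt contralateral cortex and 11.3, 11.8 and 9.13 CPM on the struck side. In cKO it read 1.32, 1.41 and 2.52 CPM against 12.8, 10.5 and 10.8 CPM. The sides were again far apart in every library. The rise was 4.85-fold in wt (log2 2.28 ± 0.20, adjusted p = 4.37e-06) and 6.67-fold in cKO (2.74 ± 0.21, adjusted p = 1.02e-06).

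Plat, the tissue-type activator, was the most abundant of the 9 genes per length and moved far less than Plau. It stood at 33.9, 31.6 and 29.9 CPM in wt contralateral and 43.8, 49.6 and 41.7 CPM in wt ipsilateral cortex, and at 37.0, 39.8 and 26.8 CPM against 56.5, 60.8 and 40.8 CPM in cKO. The sides did not overlap in either genotype, although cKO ipsilateral library 3 lay just above the highest cKO contralateral one. The change was 0.50 ± 0.15 in wt (adjusted p = 0.0923) and 0.63 ± 0.15 in cKO (adjusted p = 0.0315), or 1.42- and 1.54-fold. The cKO call was lost without cKO contralateral library 1 (adjusted p = 0.0795) or 3 (0.109) or cKO ipsilateral library 1 (0.134) or 2 (0.194). The wt change was called without cKO contralateral library 3 (adjusted p = 0.0407) or cKO ipsilateral library 3 (0.0457), and also with DESeq2 (0.0316), with the 2 groups fitted alone (0.0231) and without the low-count filter (3.21e-05). The 2 groups alone gave no call in cKO (adjusted p = 0.0712), so which genotype passes for Plat depends on the fit.

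The list of other plasminogen system genes holds 15 genes, of which 9 were tested. The transcripts of 2 brain serpins, Serpine2 (protease nexin-1) and Serpini1 (neuroserpin, an inhibitor of tissue-type activator), were the most abundant of the list and were not called: Serpine2 changed by 0.23 ± 0.07 in wt and 0.13 ± 0.07 in cKO (adjusted p = 0.133 and 0.454), and Serpini1 by -0.18 ± 0.10 and -0.20 ± 0.10 (adjusted p = 0.433 and 0.384). Plg, which encodes the substrate plasminogen and is made mainly in liver, had 15 counts in the 12 libraries together and was not tested.

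Ratios of TPM, the length-corrected measure in the deposited tables, describe the balance of the activators and the receptor. The pairs were chosen after values were seen, and 16 exact two-sided permutation tests are given over 4 pairs, in which 3 against 3 libraries cannot give p under 0.1 (0.2 after Benjamini-Hochberg adjustment). Plat exceeded Plau 16.3-, 11.6- and 12-fold in wt contralateral cortex and 3.56-, 3.82- and 4.13-fold on the struck side. In cKO the ratio was 25.6, 25.5 and 9.65 against 4.07, 5.37 and 3.44. It was lower in every struck-side library than in any contralateral library of its genotype, at that smallest p of 0.1. Plaur relative to Plau was 0.727, 1.14 and 1.4 in wt contralateral and 1.48, 2.28 and 2.07 in wt ipsilateral cortex, which did not overlap (exact two-sided permutation p = 0.1), and overlapped in cKO, at 1.82, 2.28 and 0.879 against 2.14, 2.44 and 2.15 (exact two-sided permutation p = 0.3).

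**Figure D2:**
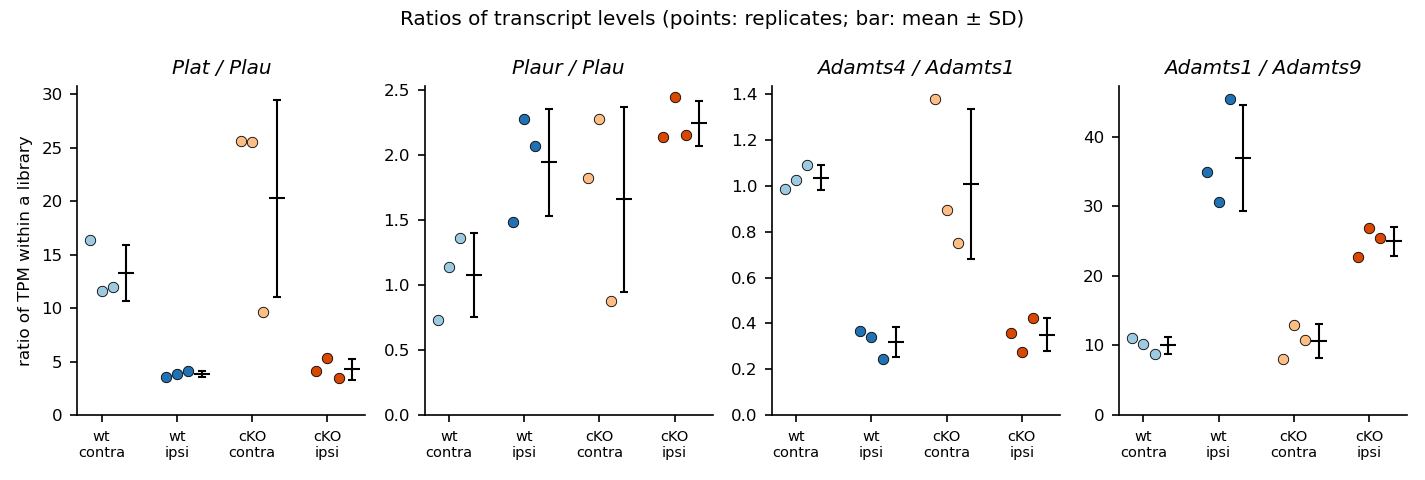
Ratios of TPM between pairs of genes in each library (linear axes from 0), by genotype and side; points are libraries and bars group means ± SD. The ratio of Plat to Plau is lower in all struck-side libraries of each genotype, whereas that of Plaur to Plau overlaps between the sides in cKO.

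Among the proteoglycan-cutting ADAMTS genes, Adamts1 rose most. It was at 10.7, 14.2 and 16.8 CPM in wt contralateral and 55.8, 61.5 and 73.4 CPM in wt ipsilateral cortex, and at 10.3, 15.3 and 13.6 CPM against 61.7, 71.6 and 61.6 CPM in cKO. The libraries of a side lay close together and the sides far apart. The rise was 4.58-fold in wt (log2 2.19 ± 0.16, adjusted p = 8.60e-07) and 5.03-fold in cKO (2.33 ± 0.17, adjusted p = 3.92e-07).

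Adamts4, an aggrecanase that in brain is known from oligodendrocytes, stood at 9.63, 13 and 16.8 CPM in wt contralateral and 18.9, 20.6 and 17.9 CPM in wt ipsilateral cortex. In cKO it read 13.8, 12.1 and 9.72 CPM against 21.6, 18.0 and 23.8 CPM. The sides did not overlap, but wt contralateral library 3 came close to the struck side. The change was 0.54 ± 0.17 in wt (adjusted p = 0.129) and 0.80 ± 0.18 in cKO (adjusted p = 0.0213). Without wt contralateral library 3 the wt change was called (adjusted p = 0.0146), as it was without the low-count filter (0.000682). The cKO call was lost without cKO contralateral library 2 (adjusted p = 0.0723) or 3 (0.0905) or cKO ipsilateral library 1 (0.0900) or 3 (0.0742).

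Adamts9 was low. It read 1.38, 1.94 and 2.54 CPM in wt contralateral and 2.09, 2.49 and 2.59 CPM in wt ipsilateral cortex, which overlapped, and 1.88, 1.66 and 1.76 CPM against 4.18, 4.0 and 3.48 CPM in cKO, which did not. The change was 0.29 ± 0.22 in wt (adjusted p = 0.596) and 1.15 ± 0.22 in cKO (adjusted p = 0.00771), or 2.22-fold in cKO. TPM of Adamts4 to Adamts1 was 0.986, 1.03 and 1.09 in wt contralateral cortex and 0.369, 0.339 and 0.243 on the struck side, and 1.38, 0.893 and 0.752 against 0.357, 0.275 and 0.422 in cKO (exact two-sided permutation p = 0.1 in both). Adamts1 relative to Adamts9 was 11.1, 10.2 and 8.72 against 34.9, 30.6 and 45.4 in wt and 8.09, 13 and 10.7 against 22.7, 26.8 and 25.4 in cKO, so that the struck sides of the genotypes did not overlap (exact two-sided permutation p = 0.1). Adamts4 and Adamts1 were thus at near equal levels per length on the opposite side and Adamts1 was ahead on the struck side.

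The other 21 ADAMTS and ADAMTS-like genes gave no call among 17 tested in either genotype, with changes of -0.30 to 0.53 in wt and -0.30 to 0.61 in cKO. The most abundant, Adamtsl2 and Adamts10, changed by -0.14 ± 0.16 and 0.29 ± 0.15 in wt and by 0.10 ± 0.17 and 0.02 ± 0.15 in cKO (adjusted p = 0.387 or higher). A list of 17 matrix substrates of these proteases gave 1 call among 14 tested, the perineuronal proteoglycan gene Bcan in wt (0.30 ± 0.08, adjusted p = 0.0461; cKO 0.19 ± 0.08, adjusted p = 0.281), and Ncan, for neurocan, was not called (adjusted p = 0.322 and 0.578). The Bcan call was lost without any 1 of 10 of the 12 libraries (adjusted p = 0.0546 to 0.221), wt contralateral library 1 and wt ipsilateral library 1 being the exceptions.

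Mmp3 was at 0 counts in 10 of 12 libraries; wt ipsilateral library 2 held 1 count and cKO ipsilateral library 1 held 2. A count of 3 over a group corresponded to 0.0354 CPM in wt contralateral, 0.0417 in wt ipsilateral, 0.0382 in cKO contralateral and 0.0494 in cKO ipsilateral cortex, so a level under these was not detectable at this depth. Other matrix metalloproteases were detected. Mmp8, the neutrophil collagenase, was at 0 in all 6 contralateral libraries and at 0.205, 1.24 and 0.617 CPM in wt and 0.613, 1.40 and 0.249 CPM in cKO struck cortex. That is at least 19.4-fold higher in wt and 19.7-fold in cKO, against 3 counts over the group (adjusted p = 0.0209 and 0.0168). Mmp8 passed the low-count filter through its struck-side libraries alone, so its call, which is among the counts below, is a description and no support.

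Mmp9, which encodes gelatinase B, was at 1.52, 1.62 and 1.46 CPM against 1.60, 4.12 and 2.47 CPM in wt (0.83 ± 0.34, adjusted p = 0.275), and at 1.44, 0.980 and 1.05 CPM against 2.59, 5.49 and 2.74 CPM in cKO (1.65 ± 0.36, adjusted p = 0.0184). The second struck-side library was the highest in each genotype. Mmp19 was at 0.518, 1.17 and 0.561 CPM against 1.15, 1.85 and 0.946 CPM in wt (0.79 ± 0.41, adjusted p = 0.402), and at 0.499, 0.426 and 0.190 CPM against 1.95, 2.96 and 1.24 CPM in cKO (2.46 ± 0.44, adjusted p = 0.00468). Mmp8 and these 2 were the calls among 13 tested of 19 further metalloprotease genes, with Mmp8 the single one in wt. The most abundant, the membrane-anchored Mmp17 and Mmp24, changed by -0.17 ± 0.08 and -0.09 ± 0.07 in wt and by -0.21 ± 0.08 and -0.08 ± 0.07 in cKO (adjusted p = 0.211 or higher). The Mmp8 call was lost in wt without wt contralateral library 1 (adjusted p = 0.0532) or 2 (0.0764) or wt ipsilateral library 2 (0.0796) or 3 (0.0565), and in cKO without cKO contralateral library 1 (0.0769) or 2 (0.0504) or cKO ipsilateral library 2 (0.0838). The Mmp9 call was lost without cKO contralateral library 2 (adjusted p = 0.0875) or 3 (0.0692) or cKO ipsilateral library 2 (0.171).

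Timp1, a secreted inhibitor of metalloproteases, was close to the counting floor. It had 14, 11 and 10 counts in wt contralateral, 14, 14 and 16 in wt ipsilateral, 10, 13 and 16 in cKO contralateral and 47, 18 and 5 in cKO ipsilateral libraries. In CPM that is 0.483, 0.380 and 0.374 against 0.574, 0.601 and 0.658 in wt, and 0.294, 0.554 and 0.762 against 1.69, 0.721 and 0.622 in cKO. The wt sides did not overlap and the cKO sides did, with cKO ipsilateral library 1 above all the others. The change was 0.56 ± 0.44 in wt (adjusted p = 0.617) and 1.06 ± 0.42 in cKO (adjusted p = 0.263). A list of metalloprotease inhibitors and related proteoglycans held 8 further genes, all tested. Of these, Timp4 was called in wt (0.34 ± 0.08, adjusted p = 0.0414) and none in cKO (Timp4 0.16 ± 0.09, adjusted p = 0.425). The Timp4 call was lost without any 1 of 8 libraries (adjusted p = 0.0584 to 0.190): all 3 of wt contralateral, wt ipsilateral libraries 2 and 3, cKO contralateral libraries 1 and 2, and cKO ipsilateral library 1. Spock1 and Spock2, proteoglycans of the same list, were not called (adjusted p = 0.276 or higher).

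Thbs1 rose in both genotypes. It was at 4.07, 4.84 and 5.61 CPM in wt contralateral and 21.5, 29.8 and 20.2 CPM in wt ipsilateral cortex, and at 1.58, 3.54 and 4.52 CPM against 26.2, 29.2 and 19.2 CPM in cKO. The 2 sides were apart in every library, and the lowest contralateral value was that of cKO library 1. The rise was 4.92-fold in wt (log2 2.30 ± 0.26, adjusted p = 5.44e-05) and 8.18-fold in cKO (3.03 ± 0.28, adjusted p = 6.00e-06). None of 9 further thrombospondins and their receptors was called, among them the receptor Cd47 (-0.02 ± 0.11 in wt and 0.02 ± 0.11 in cKO) and the integrin subunit Itgav (0.20 ± 0.10 and 0.07 ± 0.10).

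Over the 6 lists of related genes, 89 in all, 70 were tested and 4 rose in wt (among them Mmp8, Timp4 and Bcan) and 4 in cKO (among them Mmp8, Mmp9 and Mmp19), which is 5.71% each, beside the 2.73% and 2.56% of all genes. None fell. The wt count fell to 1 on leaving out wt contralateral library 2, wt ipsilateral library 2 or wt ipsilateral library 3, and to 2 on leaving out wt contralateral library 1, cKO contralateral library 1 or 2, or cKO ipsilateral library 1. The cKO count was 2 without cKO contralateral library 2 or cKO ipsilateral library 2.

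**Figure D3:**
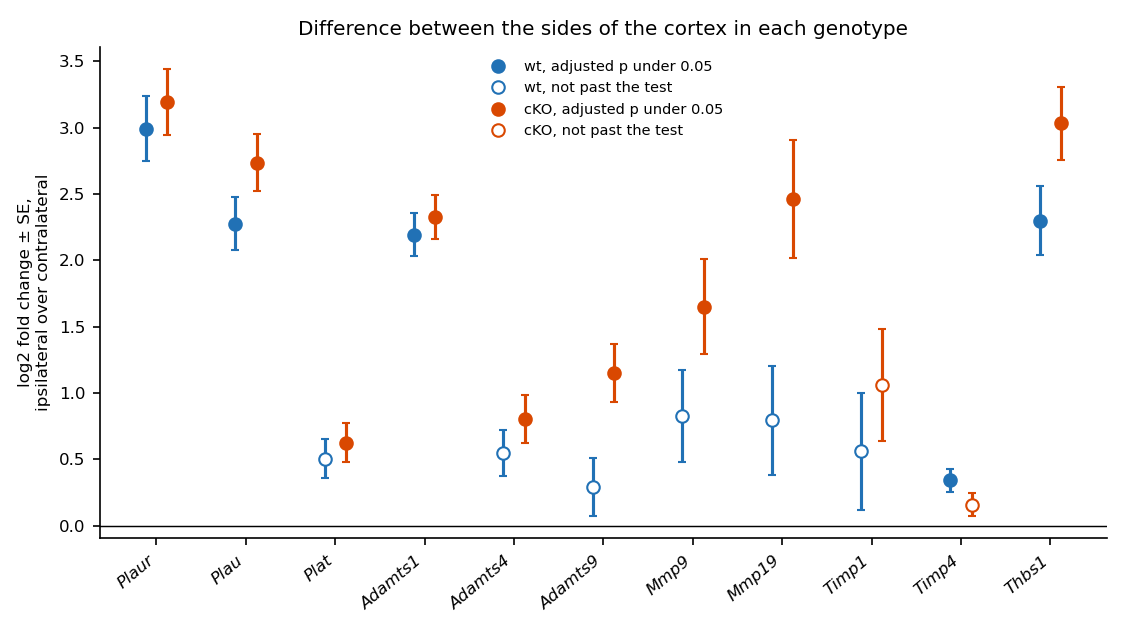
Log2 fold change of struck over opposite cortex for the 8 tested genes and for Mmp9, Mmp19 and Timp4, in wt and in cKO; bars are ± SE and filled points passed the test. Plaur, Plau, Adamts1 and Thbs1 lie at 2.19 or above in both genotypes, whereas Plat and Adamts4 lie between 0.50 and 0.80.

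Levels of different genes were compared per length, in TPM. Plat led in all 4 groups, with mean levels of 21.1 and 25.9 TPM in wt contralateral and ipsilateral cortex and 23.3 and 34 TPM in cKO. In wt contralateral cortex Adamts4 (4.90 TPM) and Adamts1 (4.69 TPM) followed without differing beyond their libraries, then Plaur (1.79), Plau (1.62), Thbs1 (1.33) and Timp1 (1.01), each overlapping its neighbour, then Adamts9 (0.483) and Mmp3 (0). In cKO contralateral cortex Adamts1 (4.59 TPM) and Adamts4 (4.48 TPM) overlapped, as did each neighbour among Plaur (1.94), Timp1 (1.4), Plau (1.29), Thbs1 (0.890) and Adamts9 (0.437), with Mmp3 at 0. On the struck side of wt, Adamts1 (19.7 TPM) and Plaur (13.1 TPM) stood apart in that order, followed by Plau (6.83), Adamts4 (6.15) and Thbs1 (5.63), whose neighbours overlapped, and by Timp1 (1.30), Adamts9 (0.540) and Mmp3 (0.0100). The order in cKO struck cortex was the same, at 22.2, 18.1, 8.13, 7.87, 6.58, 2.42, 0.893 and 0.0233 TPM. Plaur thus stood below Adamts4 in contralateral cortex (1.94 against 4.48 TPM in cKO) and above it on the struck side in both genotypes. TPM are shares of a whole: cKO ipsilateral library 3 held 10548 TPM of the noncoding RNA Bc1, where the other 11 held 83028 to 167036, which leaves more of the total for all other genes of that library.

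Between genotypes, none of the 8 genes differed after adjustment on either side, and the difference of the side changes was called for none. The background was 0% of all genes in each of these 3 comparisons. At an unadjusted edgeR p under 0.05 there was 1 gene of the 8 in each: Adamts9 in struck cortex, Thbs1 in contralateral cortex and Adamts9 for the difference. Over all 16836 genes, 987, 455 and 381 were under that unadjusted p in the same comparisons. DESeq2 and limma-voom called 0 of the 8 in all 3. All 8 estimates were above 0 in struck cortex (median 0.18, beside 0.00 for all genes) and 3 of 8 in contralateral cortex (median -0.12). Of all genes, 50.4% were above 0 in struck cortex and 49.7% in contralateral cortex. For the difference of the changes, cKO minus wt, all 8 were above 0 (median 0.36), beside 49.9% of all genes (median -0.00067). The 4 groups enter both these comparisons and the side changes, so the estimates are not independent of one another. The 8 genes were also measured in the same libraries, so their signs are not 8 separate results.

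Adamts9 was higher in every cKO struck-side library (4.18, 4.0 and 3.48 CPM) than in any wt one (2.09, 2.49 and 2.59 CPM), and was the single gene of the 8 whose genotypes did not overlap there, where 5.6% of all genes were higher and 5.99% lower without overlap. In contralateral cortex all 8 overlapped, beside 3.4% of all genes higher and 3.6% lower without overlap. The difference was 0.72 ± 0.22, or 1.65-fold with a 95% interval of 1.2 to 2.27 (edgeR unadjusted p = 0.00469, adjusted p = 0.751). Its side change was larger in cKO by 0.86 ± 0.31 (edgeR unadjusted p = 0.0151, adjusted p = 1.0). Among the related genes, the side change of Mmp19 was larger by 1.67 ± 0.61 in cKO (edgeR unadjusted p = 0.0157, adjusted p = 1.0). Its struck-side libraries overlapped between genotypes (0.71 ± 0.39), and its cKO contralateral libraries were all below the wt ones (-0.96 ± 0.47, edgeR unadjusted p = 0.0605, adjusted p = 1.0).

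Thbs1 was lower in cKO contralateral cortex by 0.65 on the log2 scale (difference -0.65 ± 0.30, edgeR unadjusted p = 0.0451, adjusted p = 1.0), with overlapping libraries, and this difference was called without the low-count filter (adjusted p = 0.0130). On the struck side it differed by 0.09 ± 0.23, and its side change was larger in cKO by 0.73 ± 0.38 (edgeR unadjusted p = 0.0714, adjusted p = 1.0). In contralateral cortex, summed monocyte and macrophage markers were at 18.3 to 21.3 CPM in wt and 10.6 to 18.4 CPM in cKO, which overlapped. Mean sums of the other marker lists were lower in cKO as well, except those of neutrophil, platelet and striatal markers. Meningeal and fibroblast markers averaged 160 CPM in wt and 131 CPM in cKO, and platelet markers 5.66 and 5.77 CPM. The part of these cells in the result was not tested.

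The remaining genes had struck-side genotype differences of 0.30 ± 0.21 (Plaur), 0.09 ± 0.18 (Plau), 0.24 ± 0.15 (Plat), 0.03 ± 0.15 (Adamts1), 0.12 ± 0.17 (Adamts4) and 0.82 ± 0.41 (Timp1). In contralateral cortex they were 0.10 ± 0.29, -0.37 ± 0.23, 0.12 ± 0.15, -0.10 ± 0.17, -0.13 ± 0.18 and 0.32 ± 0.45 in the same order. The struck-side 95% intervals of the fold reached from 0.814 to 1.67 over Plaur, Plau, Plat, Adamts1 and Adamts4, and that of Timp1 from 0.959 to 3.26. None passed unadjusted p under 0.05 by edgeR, and a p that misses the threshold does not show equal levels.

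**Figure D4:**
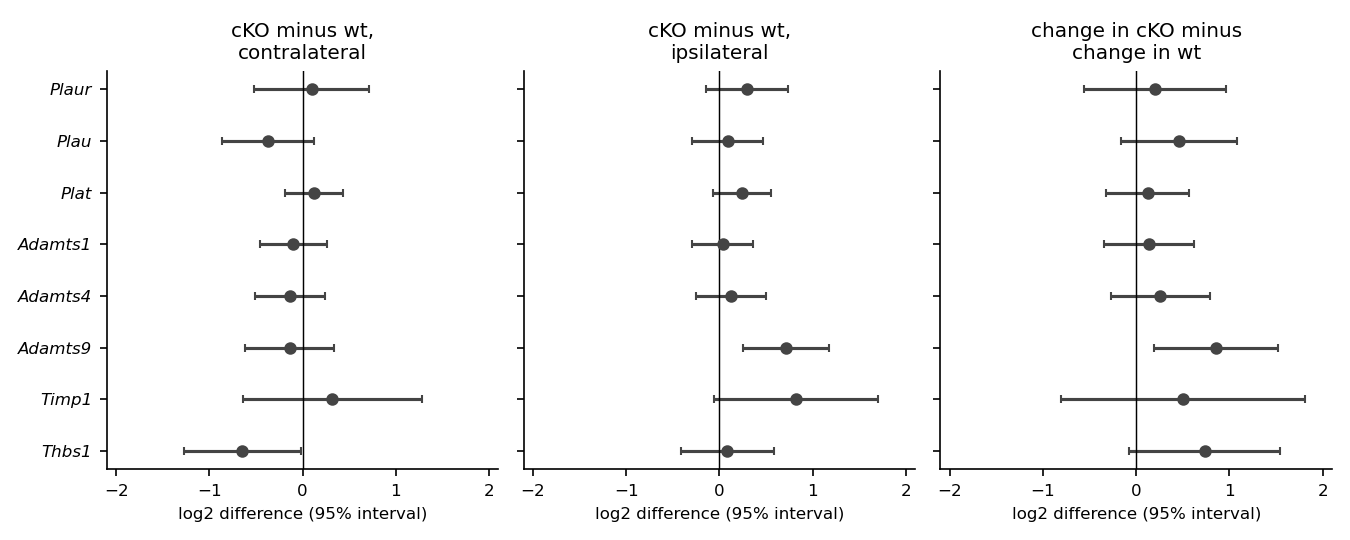
Log2 difference of cKO from wt for the 8 tested genes in struck cortex and in contralateral cortex, and the difference of the side changes, with 95% intervals. Intervals that do not reach 0 are those of Adamts9 in struck cortex and for the difference of changes, and of Thbs1 in contralateral cortex; none was called after adjustment.

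Transcripts of neutrophils, platelets and erythroid cells were also higher on the struck side. Monocyte and macrophage markers (10 genes) overlapped between the sides. They summed to 18.3 to 21.3 CPM in wt contralateral and 17.1 to 26.0 CPM in wt ipsilateral cortex. In cKO they summed to 10.6 to 18.4 against 18.0 to 28.2 CPM. Of 5 tested, 0 were called in wt and 1 was called higher in cKO. Neutrophil markers (12 genes) summed to 4.66 to 4.90 CPM in wt contralateral and 12.6 to 33.6 CPM in wt ipsilateral cortex. In cKO they summed to 4.37 to 5.76 against 22.9 to 50.4 CPM. Of 8 tested, 8 rose in both genotypes, beside 2.73% and 2.56% of all genes. Camp was at 0 in all 3 wt contralateral libraries. Contralateral libraries 1, 2 and 3 had 7, 2 and 7 of the 12 genes at 0 counts in wt and 4, 6 and 3 in cKO. Genes so low there can pass the low-count filter through the struck side alone, so these calls are a description and no support. Neutrophils are known to carry Plaur, Mmp8 and Mmp9. In wt struck cortex, library 2 was the highest for the neutrophil sum and for Plaur, Plau, Plat, Adamts4, Thbs1, Mmp8, Mmp9 and Mmp19, while Adamts1, Adamts9 and Timp1 were highest in library 3. In cKO struck cortex library 2 was the highest for the neutrophil sum and for Plat, Adamts1, Thbs1, Mmp8, Mmp9 and Mmp19, while Plaur, Plau, Adamts9 and Timp1 were highest in library 1 and Adamts4 in library 3. The part of these cells in the results was not tested, and in bulk cortex more cells of a type and more RNA per cell cannot be told apart.

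Platelet markers (10 genes) summed to 4.42 to 6.46 against 10.4 to 17.6 CPM in wt and to 5.03 to 6.19 against 9.95 to 13.4 CPM in cKO, beside the rise of Thbs1, a gene that megakaryocytes transcribe. Of 8 tested, 3 rose in wt and 1 in cKO, beside 2.73% and 2.56% of all genes. Clec1b was at 0 in all 3 cKO contralateral libraries, and Ppbp, Gp6 and Treml1 were at 0 in some contralateral libraries of both genotypes. Such genes can pass the low-count filter through the struck side alone, so the platelet calls are a description and no support. Erythroid markers (6 genes) summed to 2.1 to 242 against 597 to 2104 CPM in wt and to 4.76 to 81.6 against 602 to 933 CPM in cKO. The erythroid sum, a measure of blood in the sample, was thus higher in every struck-side library. Endothelial markers (10 genes; endothelium is a known source of Plat) summed to 265 to 303 against 291 to 377 CPM in wt and to 246 to 271 against 295 to 322 CPM in cKO, with 1 of 10 called in each genotype. Astrocyte markers (7 genes) summed to 3245 to 4180 against 4057 to 4446 CPM in wt, which overlapped, and to 3363 to 3696 against 3979 to 4269 CPM in cKO, which did not, with 1 of 7 called higher in each. Neuron markers (6 genes) summed to 6729 to 7083 against 5977 to 6870 CPM in wt, which overlapped, and were lower without overlap in cKO, at 6639 to 6955 against 5728 to 5815 CPM, with 1 of 6 called lower in wt and 2 of 6 in cKO. Microglia markers (7 genes) overlapped between the sides, at 207 to 219 against 199.7 to 224 CPM in wt and 194 to 208 against 166 to 209 CPM in cKO, with 1 of 7 called lower in each. Meningeal and fibroblast markers (8 genes) summed to 153 to 170 against 92.1 to 150 CPM in wt, lower without overlap. The cKO sums, 107 to 153 against 90.3 to 133 CPM, overlapped. Of these 8 markers, 1 was called lower in wt and 0 in cKO. Their part in the results was not tested.

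**Figure D5:**
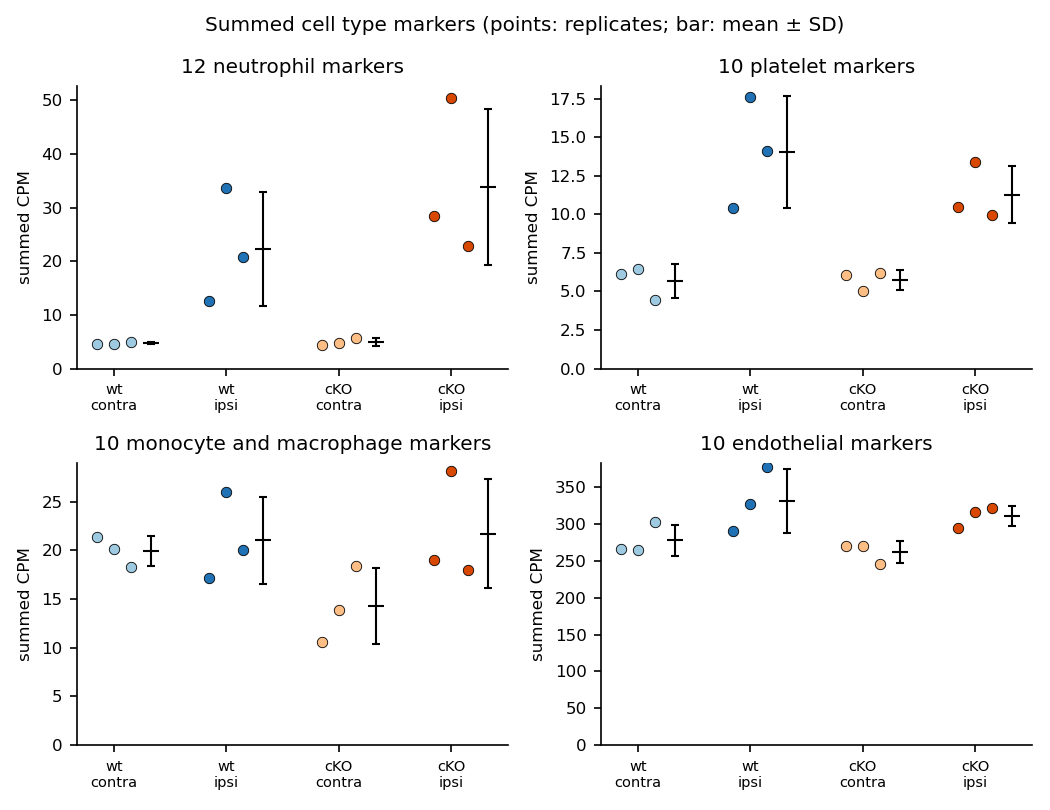
Summed CPM of neutrophil, platelet, monocyte and macrophage, and endothelial markers in each library (linear axes from 0), by genotype and side; points are libraries and bars group means ± SD. Neutrophil and platelet sums are higher in all struck-side libraries than in the contralateral libraries of the same genotype, whereas monocyte and macrophage sums overlap between the sides in both genotypes.

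Genes with the most similar profile to each of the 8 were found by the root mean square difference of centred log2 CPM over the 12 libraries, among 14476 genes; 0 would be an identical profile. Adamts1 was nearest to Ptgs2 (0.15), the inducible cyclooxygenase, to Plek (0.17) and to Btg2 (0.19). Plaur lay near Socs3 (0.29), Maff (0.29) and Nfkbiz (0.34), and Plau near Epha2 (0.26), Gem (0.26) and Maff (0.29). Thbs1 lay near Epha2 (0.32), Emp1 (0.32) and Neurl3 (0.33), with Plau at 0.31. Adamts4 had other neighbours, Prr18 (0.10), Chd7 (0.15) and Bcas1 (0.16), of which Prr18 and Bcas1 are known from oligodendrocytes. Plat lay near Smim3 (0.11), Chrm4 (0.12) and Ncf1 (0.12), and Adamts9 near Ahnak (0.17), Mt2 (0.22) and Cdkn1a (0.23). Timp1 lay near Mapkapk3 (0.32), Trim16 (0.33) and Fhod1 (0.33). The distance is not scaled to how much a gene varies. The root mean square of a profile around its own mean was 1.56 for Plaur, 1.26 for Plau, 1.15 for Adamts1 and 1.40 for Thbs1. It was 0.345 for Plat, 0.416 for Adamts4, 0.473 for Adamts9 and 0.544 for Timp1. A smaller distance for these last genes is therefore not a closer match. All genes were compared over the same 12 libraries, of both sides and of unequal depth, and the measure is a description.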

How the data were processed

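The authors deposited, for 12 mouse cortex libraries, RSEM estimated counts and TPM per gene. Per the submitters' processing notes, Trim Galore 0.6.4, STAR 2.7.1a, RSEM 1.2.28, DESeq2 1.36.0 and mm10 were used; the gene annotation is not given in the sources used here. Per the labels' protocols, a stranded mRNA kit was used. The estimated counts were deposited as whole numbers.

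Identifiers were matched to GENCODE M21 (55141 of 55487). edgeR 4.0.16 in R 4.3.3 kept 16836 genes (filterByExpr, minimum count 10, total 15), applied TMM scaling (trimmed mean of M values) and fitted 1 quasi-likelihood model with the 4 groups as its terms (n = 3 in each group). The 5 comparisons were side in each genotype, genotype on each side, and their difference, adjusted by Benjamini-Hochberg. The SE is the absolute log2 change over the square root of F. limma 3.58.1 and DESeq2 1.42.0 served alternatives, and 1 alternative, leaving out 2 libraries together, was chosen after seeing the data. The code was tested on simulated counts. No 2 libraries were identical.

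The 9 genes, the lists and the rules were chosen with earlier results of these data known. Of the related lists, called genes and the 2 with the highest mean TPM per list were named; ratio pairs and genes beyond this rule were chosen after their values were seen. A few items that the rule names are not reported here. Cell type markers were summed per library. Depth was 7958931 to 33567194 counts, and floors cover counting error only.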

Additional observations from a re-analysis of the deposited data

How the results depend on the processing

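Under all 24 alternatives, Plaur, Plau, Adamts1 and Thbs1 were called in both genotypes, with adjusted p at most 0.00913, and no called change reversed. Members called were 4 in wt (4 to 6 over alternatives, 4 to 5 leaving out libraries) and 7 in cKO, where limma on log2(TPM + 1), log2(TPM + 0.1) and log2(TPM + 1) without a filter on TPM gave 4 each and left-out libraries 5 to 7. Those fits lost Plat and Adamts4; Adamts9 was below the filter on TPM in the first 2 and had adjusted p = 0.151 in the third. Without the low-count filter, Thbs1 was the 1 member called between genotypes in contralateral cortex.

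Genes of the related lists called in wt were 2 with library totals or the 2 groups alone, 8 without the low-count filter, 1 in each TPM fit, and 1 to 5 leaving out libraries. In cKO they were 1 in each TPM fit and 2 to 4 leaving out libraries, and 1 was called between genotypes in struck cortex without the filter. Over all genes, wt calls were 991 without the filter, 755 with DESeq2, 139, 138 and 98 in the TPM fits, and 250 to 968 leaving out libraries. For cKO they were 968 without the filter, 654 with DESeq2, 174, 170 and 170 in the TPM fits, and 277 to 579 leaving out libraries. Between genotypes, the filter's absence gave 223 (struck), 96 (contralateral) and 72 (difference), DESeq2 12, 1 and 0, the TPM fits 1 each in struck cortex and for the difference, and left-out libraries 0 to 2 in contralateral cortex. The cause was not tested.

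Uncalled genotype estimates changed sign when libraries were left out. In struck cortex the ranges were -0.024 to 0.16 (Plau), -0.056 to 0.14 (Adamts1) and -0.048 to 0.28 (Thbs1). In contralateral cortex they were -0.19 to 0.29 (Plaur), -0.26 to 0.055 (Adamts1), -0.32 to 0.083 (Adamts4), -0.33 to 0.097 (Adamts9) and -0.0073 to 0.66 (Timp1). For the difference they were -0.025 to 0.30 (Plat), -0.021 to 0.29 (Adamts1), -0.035 to 0.44 (Adamts4) and -0.16 to 0.83 (Timp1).

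Same-numbered libraries of the 2 sides had deviations correlated at -0.0043, 0.195 and 0.0936 in wt and 0.112, 0.183 and 0.0851 in cKO. The highest correlation with another number was 0.0720, -0.0553 and 0.0904 in wt and -0.0272, -0.0399 and 0.0289 in cKO. The labels do not say that equal numbers are the same animal, so the main fit held no block for the number. A pairing is not excluded by this. With the replicate block, 5 members were called in wt (Plat added, adjusted p = 0.00383) and 7 in cKO, and 567 and 533 genes in all. As library totals, the 2 groups alone and the TPM fits did, it ended the Timp4 and Bcan calls in wt (adjusted p = 0.0592 and 0.0702). Of 6 libraries compared, 5 matched their own number best. Mmp3 had too few counts for a test, and Timp1 had as few as 5 counts in a library.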
